A study of Mus musculus with 19 samples.

Results

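The genes described here are *Smg1*, *Smg5*, *Smg6*, *Smg8* and *Smg9*, which encode SMG proteins of nonsense-mediated RNA decay (NMD). They were chosen by name, matched by gene symbol to the Ensembl identifiers of the count table, and are 5 of 41388 genes in that table. All 5 were among the 17137 genes tested. The data are RNA-seq read-pair counts from single whole mouse E3.25 blastocysts, of which 8 were *Upf2*-null (Upf2 -/-) and 11 were control (Upf2 +/+) embryos. By the study's protocol for early blastocysts, superovulated young females were mated and their zygotes were cultured in M16 medium to that stage. For some experiments blastocysts were instead flushed from the females at E3.5, and the study's RNA-seq methods do not name the route. The null allele lacks exons 2 and 3 of *Upf2*. It was made by crossing a floxed line, on a C57BL/6 background, to mice with Cre under the E2a promoter, which deletes in the whole animal, and UPF2 protein deposited by the heterozygous mother may persist in the embryo. Each embryo is a separate animal, but the sources used here do not say which embryos were littermates.

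NMD degrades mRNAs whose translation ends at a stop codon that is read as premature, most often because an exon junction lies downstream of it, or because the 3′ UTR is long. When a ribosome stops at such a codon, UPF1 is phosphorylated by the kinase SMG1, which works in a complex with its regulators SMG8 and SMG9. Phosphorylated UPF1 is then bound by SMG5, an adaptor that recruits phosphatase and mRNA decay enzymes, and by SMG6, an endonuclease that cuts the mRNA near the stop codon. The mRNAs of several of these factors are themselves known NMD targets in other cells, which forms a feedback loop in which weaker NMD raises the level of its own factors. The comparison of *Upf2*-null with control embryos therefore asks whether SMG mRNAs are higher in blastocysts without UPF2.

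The end of each coding sequence is shown first, because downstream exon junctions and 3′ UTR length are counted from the stop codon. Upstream open reading frames, another known feature of NMD targets, lie in the 5′ UTR, and neither UTR is printed. The lines below give the last coding bases of the longest coding transcript of each gene (GENCODE M21, GRCm38), read 5′ to 3′ on the strand of the gene, with the stop codon in capitals.
Smg1: ctgtatgaaggttggacagcttgggtgTGA
Smg8: cgaggagtcctcaaagcagttacacaaTGA
Smg9: ctggcagagtacagccgcctgctggccTGA
Smg5: ttctacaggcagtggaaggagattggtTGA
Smg6: gccttccttacgtgggcccaggtgggcTGA
All 5 coding sequences end in TGA. The stop codon of *Smg1* lies at chr7:118135541-118135543 on the minus strand and is followed by a 3′ UTR of 4233 bases. That of *Smg8* lies at chr11:87077953-87077955 on the minus strand, with 221 bases after it, and that of *Smg9* at chr7:24422376-24422378 on the plus strand, with 400 bases. The stop codon of *Smg5* lies at chr3:88361106-88361108 on the plus strand, with 1230 bases after it, and that of *Smg6* at chr11:75162948-75162950 on the plus strand, with 1498 bases.

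The 3′ UTR of *Smg1* was longer than those of 95.2% of the 14187 tested genes with an annotated coding transcript and 3′ UTR, whose median was 856 bases. *Smg6* was at the 68.3 percentile and *Smg5* at the 61.7 percentile, while *Smg9* and *Smg8* were at 29.3 and 16.7, so the kinase regulators have short 3′ UTRs and the kinase a long one. *Smg5* and *Smg9* each had 1 upstream open reading frame in the 5′ UTR, and the other 3 genes had 0; of all genes compared, 40.1% had at least 1. In none of the 5 longest coding transcripts did an exon junction lie 50 or more bases downstream of the stop codon, which was so for 0.324% of all genes compared. *Smg1*, *Smg5* and *Smg6* each had 1 further annotated transcript of the NMD class, *Smg8* and *Smg9* had 0, and 26.7% of all genes compared had at least 1. Counts per gene add all transcripts of a gene, so these forms cannot be told apart in the values below.

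**Figure D1:**
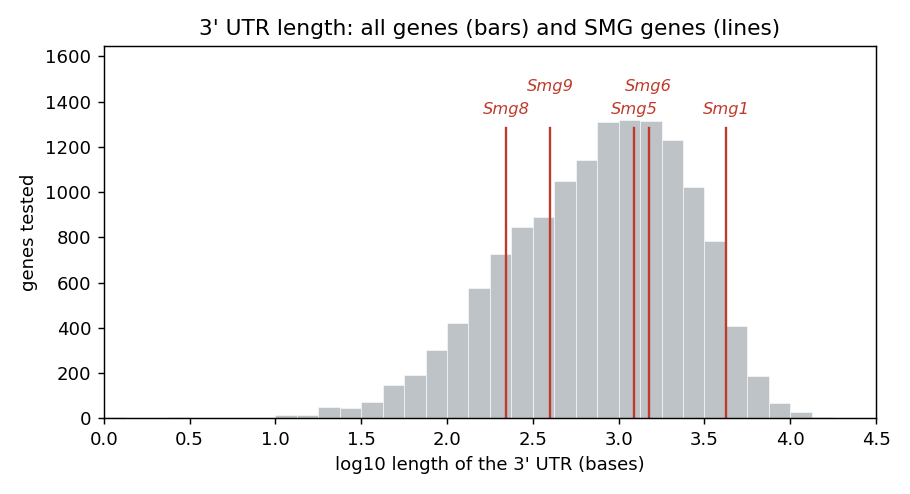
Length of the 3′ UTR on a log10 axis, in bases, for the 14187 genes compared (grey bars, number of genes) and for the 5 SMG genes (red lines). *Smg8* (221 bases) and *Smg9* (400 bases) lie on the short side of the distribution, *Smg5* (1230 bases) and *Smg6* (1498 bases) above its median of 856 bases, and *Smg1* (4233 bases) in its long tail.

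The 19 libraries held 4056072 to 5993745 counts in genes. The number of genes with at least 1 count was 14522 in control embryo 5 and 15547 to 17084 in the other 18 embryos. Levels are given as CPM, the counts per 1000000 counts of the library, scaled between libraries by the trimmed mean of M values (TMM). *Upf2* itself, in which the gene-level count still includes the exons outside the deletion, ranged over 64.3 to 123 CPM in *Upf2*-null embryos (median 88.7) and over 37.2 to 87.8 CPM in control embryos (median 55.2), so that the gene-level count does not check the genotype. Of the marker lists, cumulus and granulosa markers summed to at most 4.39 CPM in any embryo. Trophectoderm markers summed to 1020 to 1849 CPM (median 1606) in *Upf2*-null and 983 to 1981 CPM (median 1559) in control embryos. Primitive endoderm markers summed to 721 to 986 CPM (median 850.3) and 712 to 966 CPM (median 805), and oocyte markers to 0.531 to 32.7 CPM (median 17.9) and 3.93 to 81.2 CPM (median 21.5), with 0 genes of these 3 lists called by edgeR, DESeq2 or voom and 1, the oocyte gene *Oosp1*, lower at an unadjusted p under 0.05 by edgeR. Epiblast markers summed to 382 to 467 CPM (median 420) in *Upf2*-null and 430 to 855 CPM (median 568) in control embryos, with 0 of 8 genes called by edgeR, 3 lower at an unadjusted p under 0.05 and, by DESeq2, 2 called lower. The log2 fold change by edgeR was above 0 for 3 of these 8 genes and below 0 for 5, where 47.7% of all genes were above 0. Among all 17137 genes, DESeq2 called 74 lower. By edgeR 2147 were at an unadjusted p under 0.05, 883 of them higher and the rest lower. In RNA of whole embryos, fewer cells of a type and less RNA per cell cannot be told apart, and the part of cell make-up in the SMG values was not tested.

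None of the 5 SMG genes was called different between *Upf2*-null and control embryos, at a Benjamini-Hochberg adjusted p under 0.1 in the quasi-likelihood fit of edgeR. By the same rule 33 of 17137 genes, or 0.193%, were called, and with 1 embryo left out 14 (without *Upf2*-null 4 or 5) to 43 genes were called. The fitted level was higher in *Upf2*-null embryos for *Smg9*, *Smg1*, *Smg5* and *Smg6*, by 1.39- to 1.66-fold, but the 95% confidence interval of each included no difference. The fitted level of *Smg8* was 0.985-fold. An estimate above 0 was thus given by 4 of 5 SMG genes, against 47.7% of all genes tested. The median log2 fold change was 0.59 over the 5 genes and −0.02 over all genes. At the looser limit of an unadjusted p under 0.05, edgeR gave 0 of 5 and DESeq2 0 of 5, against 12.5% and 8.19% of all genes, and voom with quality weights gave 1 of 5, *Smg1*, against 10.4% of all genes. The edgeR share depended on the filter: 2147 of 17137 genes were under that limit, and 979 of 13263 with at least 10 counts in 5 embryos. DESeq2 called 1.03% of all genes and voom 0.654%, in both cases with 0 SMG genes among them.

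*Smg1* encodes the phosphatidylinositol 3-kinase-related kinase that phosphorylates UPF1 (chr7:118131308-118243670, minus strand, 63 exons). In *Upf2*-null embryos its level was lowest at 39.1 CPM, with a median of 85.6 and a highest value of 161 CPM. In control embryos the lowest value was 5.75 CPM, the median 48.7 and the highest 126 CPM. The groups overlapped: 7 of 8 *Upf2*-null embryos were above the control median, 2 were above every control, and control embryos 2, 3 and 6 were each above 100 CPM. The mean was 92.5 ± 39.8 CPM (SD, n = 8) in *Upf2*-null and 60.2 ± 39.4 CPM (SD, n = 11) in control embryos, a log2 fold change of 0.62 ± 0.39 (SE; 95% confidence interval −0.20 to 1.44; edgeR, Benjamini-Hochberg adjusted p = 0.610). By voom the log2 fold change was 0.84, with an unadjusted p of 0.0202 and an adjusted p of 0.377. The interval of the edgeR estimate runs from 0.870- to 2.71-fold.

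*Smg8* encodes a subunit of the SMG1 complex that restrains the kinase (chr11:87077732-87086774, minus strand, 4 exons). Its level ran from 40.4 to 92.0 CPM in *Upf2*-null embryos (median 68.2) and from 38.9 to 83.7 CPM in control embryos (median 68.4). The ranges nearly coincided, with 4 of 8 *Upf2*-null embryos above the control median and 1 above every control. The means were 65.8 ± 19.3 CPM (SD, n = 8) and 66.8 ± 15.6 CPM (SD, n = 11), and the log2 fold change was −0.02 ± 0.19 (SE; 95% confidence interval −0.41 to 0.37; edgeR, Benjamini-Hochberg adjusted p = 0.991). *Smg8* was the SMG gene measured most tightly. Its interval, 0.751- to 1.29-fold, does not reach the fitted folds of the other 4 genes, but whether *Smg8* differed from them in response was not tested.

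*Smg9* encodes the GTPase-like partner of SMG8 in the same complex (chr7:24399619-24422778, plus strand, 14 exons). Its lowest value in *Upf2*-null embryos was 11.2 CPM, the median 40.5 and the highest 82.2 CPM, against 9.05, 17.5 and 39.5 CPM in control embryos. The *Upf2*-null embryos were widely spread: embryos 1, 2, 3 and 6 were above every control, and embryos 4, 5 and 7 were below the control median but inside the control range. The means were 39.2 ± 25.5 CPM (SD, n = 8) and 23.7 ± 11.5 CPM (SD, n = 11). The fitted difference of *Smg9* was a log2 fold change of 0.73 ± 0.38 (SE; 95% confidence interval −0.07 to 1.52; edgeR, Benjamini-Hochberg adjusted p = 0.472). Without *Upf2*-null embryo 2, which had the highest value, it was 0.48, which is smaller by a factor of over 1.5. The order of the 5 genes by fitted difference was not stable: *Smg9* was highest by edgeR, but *Smg1* was above it by voom (0.84 against 0.59), by limma on the scaled table (0.84 against 0.54) and by edgeR without *Upf2*-null embryo 2 (0.67 against 0.48). The summed level of the trophectoderm markers was 1020, 1332 and 1150 CPM in *Upf2*-null embryos 4, 5 and 7, which had the low *Smg9* values, and 1603 to 1849 CPM in the other 5 *Upf2*-null embryos. The control embryos were mixed. Embryos 2, 6 and 11 were low in both, and 1, 3 and 7 higher in both. Control 4 had the lowest sum, 983 CPM, with 39.3 CPM of *Smg9*. Controls 5, 8 and 9 had sums of 1981, 1760 and 1589 CPM with 17.5, 13.4 and 9.05 CPM of *Smg9*. *Smg9* also varied with the library total, with a Pearson correlation of 0.54 within *Upf2*-null and 0.44 within control embryos. Over all 19 embryos that relation did not pass its test (permutation p = 0.0457, adjusted 0.0891). The part of the marker sum or of the library total in the *Smg9* values was not tested.

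*Smg5* encodes the adaptor that binds phosphorylated UPF1 (chr3:88336260-88362338, plus strand, 22 exons). Its level ran from 23.9 to 54.5 CPM in *Upf2*-null embryos (median 44.4) and from 2.65 to 49.6 CPM in control embryos (median 29.98). Of the *Upf2*-null embryos, 7 of 8 were above the control median, but only embryos 1 and 8 were above control embryo 3, the highest control. The means were 42.7 ± 10.0 CPM (SD, n = 8) and 28.3 ± 12.7 CPM (SD, n = 11), and edgeR gave a log2 fold change of 0.59 ± 0.32 (SE; 95% confidence interval −0.09 to 1.26; edgeR, Benjamini-Hochberg adjusted p = 0.508). Without control embryos 2, 4 and 5 it was 0.38 (edgeR, adjusted p = 0.633). That set was chosen after seeing the data. Its values of 23.4, 25.4 and 2.65 CPM were each below the control median, so leaving them out lowers the estimate.

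*Smg6* encodes the endonuclease of the pathway (chr11:74925823-75164448, plus strand, 19 exons). Its level ran from 16.3 to 65.9 CPM in *Upf2*-null embryos (median 38.2) and from 0.442 to 43.7 CPM in control embryos (median 29.1). The groups overlapped over most of their range, with 6 of 8 *Upf2*-null embryos above the control median and embryos 2 and 7 above every control. The means were 38.1 ± 14.5 CPM (SD, n = 8) and 27.3 ± 12.9 CPM (SD, n = 11), and edgeR gave a log2 fold change of 0.48 ± 0.42 (SE; 95% confidence interval −0.40 to 1.36; edgeR, Benjamini-Hochberg adjusted p = 0.777). By voom it was 0.28 (adjusted p = 0.811), and without control embryos 2, 4 and 5, a set chosen after seeing the data, it was 0.24 (edgeR, adjusted p = 0.868). Exons of *Smg6* share 126 bases with *Srr* and 117 bases with *Gm12333*, which lie on the opposite strand, out of 8453 exon bases. The counting was not stated to use strand, so reads there cannot be assigned to one gene.

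**Figure D2:**
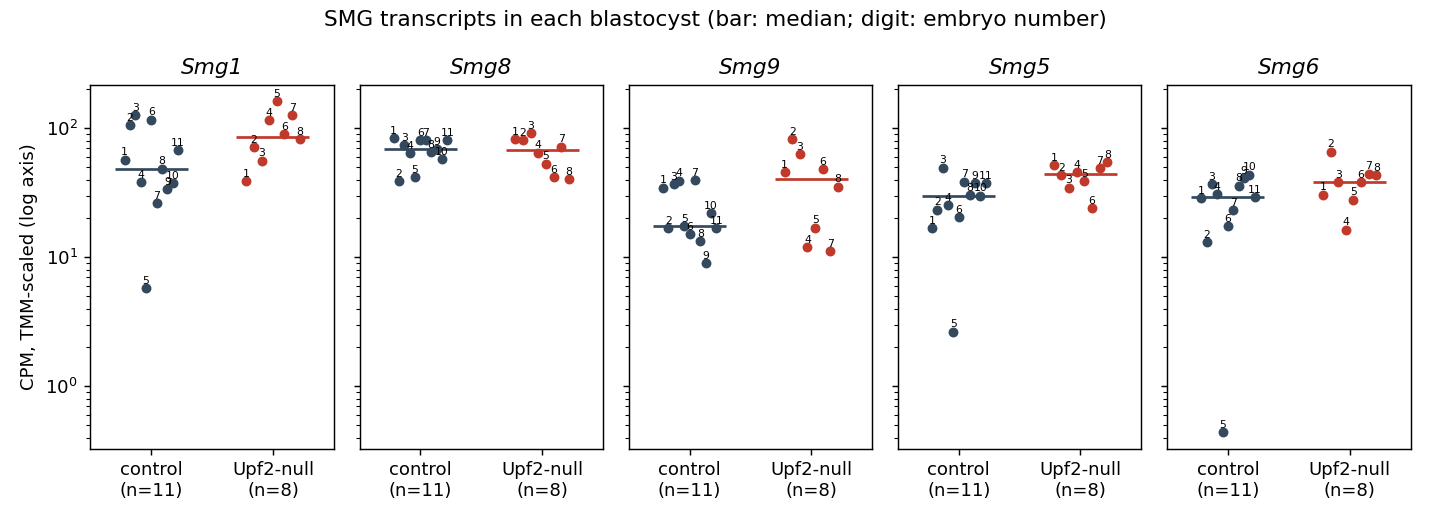
TMM-scaled CPM on a log axis for each SMG gene in each of 11 control (dark) and 8 *Upf2*-null (red) embryos; digits are embryo numbers and bars group medians. The groups overlap for all 5 genes, control embryo 5 lies far below the rest for *Smg1*, *Smg5* and *Smg6*, and the *Smg9* values of *Upf2*-null embryos 4, 5 and 7 (11.2 to 16.9 CPM) lie below those of the other 5 (35.2 to 82.2 CPM).

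Control embryo 5 set the lower end of the control range for *Smg1*, *Smg5* and *Smg6*. It held 26 counts of *Smg1*, 12 of *Smg5* and 2 of *Smg6*, which are the lowest counts of these genes in any embryo, while its *Smg8* level was 41.6 CPM and its *Smg9* level 17.5 CPM, inside the range of the other controls. Its library total of 4823822 counts was inside the range of the others, but it had the fewest genes detected and the highest summed level of trophectoderm markers, 1981 CPM. Without it, the lowest control values were 26.1 CPM for *Smg1*, 16.7 CPM for *Smg5* and 13.1 CPM for *Smg6*. The control means then were 65.7 ± 36.9 CPM for *Smg1* and 30.9 ± 9.92 CPM for *Smg5* (SD, n = 10). The log2 fold changes without it were 0.49, 0.46 and 0.33, with edgeR Benjamini-Hochberg adjusted p of 0.592, 0.374 and 0.695, so the estimate was lower for all 3 genes and none passed the threshold. The part of either measure in its low values was not tested.

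**Figure D3:**
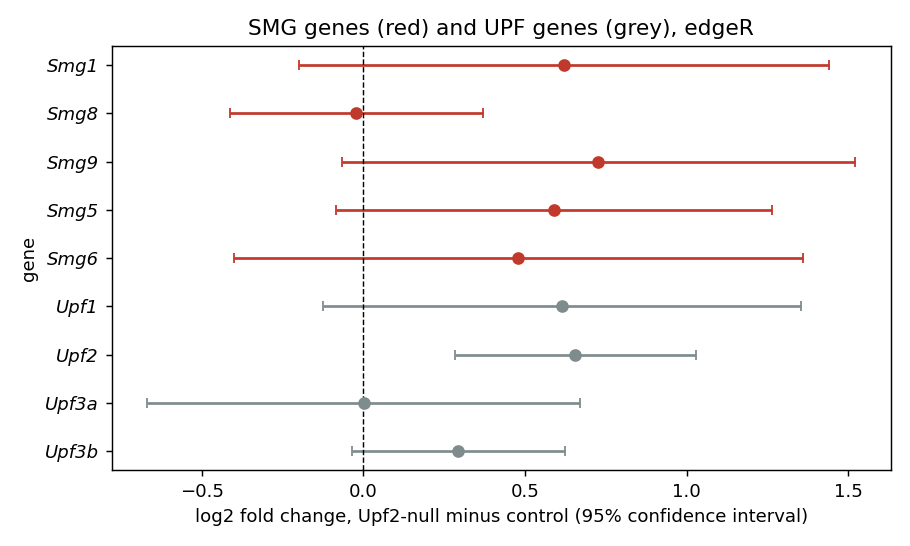
Log2 fold change of *Upf2*-null minus control embryos, with 95% confidence intervals, for the SMG genes (red) and UPF genes (grey), fitted by edgeR to 8 and 11 embryos. The points of *Smg1*, *Smg9*, *Smg5* and *Smg6* lie between 0.48 and 0.73 with intervals that cross 0, and *Smg8* lies at −0.02.

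Spread between embryos of one genotype was wide. The median standard error of the log2 fold change was 0.38 for the 5 SMG genes, against 0.20 for the 7841 tested genes with a mean of at least 20 CPM. The coefficient of variation within *Upf2*-null embryos was 65.1% for *Smg9*, 43.1% for *Smg1*, 38.1% for *Smg6*, 29.4% for *Smg8* and 23.5% for *Smg5*. Within control embryos it was 65.4% for *Smg1*, 48.3% for *Smg9*, 47.4% for *Smg6*, 44.8% for *Smg5* and 23.4% for *Smg8*. *Smg8* thus had the lowest spread in control embryos and *Smg5* in *Upf2*-null embryos. Part of the spread came with control embryo 5. Without it, the standard error was 0.32 for *Smg1*, 0.22 for *Smg5*, 0.26 for *Smg6*, 0.18 for *Smg8* and 0.40 for *Smg9*. The coefficient of variation within the other control embryos was 56.2% for *Smg1*, 32.1% for *Smg5*, 33.0% for *Smg6*, 20.0% for *Smg8* and 48.8% for *Smg9*.

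Between genes, levels can be compared only per length, and CPM was divided by the kilobases of all annotated exons of each gene. In control embryos *Smg8* was highest at 20.8 ± 4.85 CPM per kilobase, followed by *Smg9* at 6.40 ± 3.10, *Smg5* at 4.07 ± 1.82, *Smg6* at 3.23 ± 1.53 and *Smg1* at 2.51 ± 1.64 (SD, n = 11). In *Upf2*-null embryos the order was the same, at 20.4 ± 6.01 for *Smg8*, 10.6 ± 6.90 for *Smg9*, 6.13 ± 1.44 for *Smg5*, 4.51 ± 1.72 for *Smg6* and 3.86 ± 1.66 CPM per kilobase for *Smg1* (SD, n = 8). *Smg8* was above *Smg9* in 11 of 11 control and 7 of 8 *Upf2*-null embryos. The lower neighbours did not differ beyond their spread: *Smg9* was above *Smg5* in 8 of 11 and 5 of 8 embryos, *Smg5* above *Smg6* in 8 of 11 and 6 of 8, and *Smg6* above *Smg1* in 7 of 11 and 6 of 8. Coverage along the transcripts, which enters a level per length, was not analysed here.

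**Figure D4:**
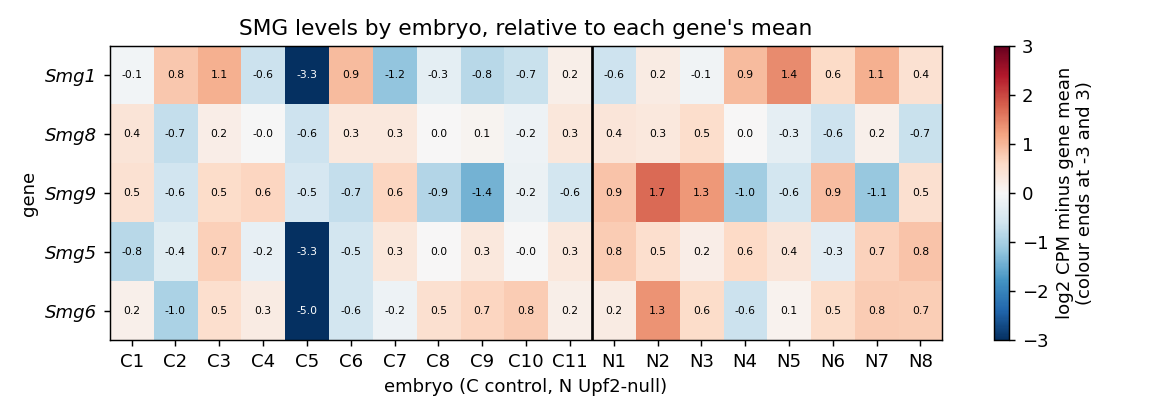
Log2 CPM of each SMG gene minus the mean of that gene over the 19 embryos, for control (C) and *Upf2*-null (N) embryos; red is above and blue below the mean. Control embryo 5 is low for *Smg1*, *Smg5* and *Smg6* together, and *Upf2*-null embryos 4, 5 and 7 are above the mean for *Smg1* and below it for *Smg9*.

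No pair of the 5 genes was correlated over embryos by a test that passed the correction for the number of pairs. Pearson and Spearman correlations of log2 CPM, centred on the genotype means, were computed for the 10 pairs over 19 embryos, with two-sided permutation tests of 100000 resamples within genotype. The highest Pearson correlation was that of *Smg5* and *Smg6*, at 0.85 (permutation p = 0.0143, adjusted over the 10 pairs 0.143; Spearman's rho 0.55, permutation p = 0.0196, adjusted 0.196). It rests on control embryo 5: without the 2 embryos farthest from the median of *Smg5*, which are control embryo 5 and *Upf2*-null embryo 6, it was 0.38. *Smg1* with *Smg5* gave 0.59 (permutation p = 0.0620, adjusted 0.161; rho 0.01, p = 0.987, adjusted 0.987) and −0.32 without its 2 farthest embryos, so this relation also rests on them. *Smg1* and *Smg9*, whose proteins share a complex, gave −0.21 (permutation p = 0.344, adjusted 0.485; rho −0.38, p = 0.105, adjusted 0.527) and −0.53 without the 2 farthest embryos. Within the 8 *Upf2*-null embryos the Pearson correlation of *Smg1* and *Smg9* was −0.75 and within the 11 control embryos 0.05, a difference that was not tested.

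Of 10 relations between the SMG genes and the library total or the number of genes detected, 1 passed a Benjamini-Hochberg adjusted p under 0.05. *Smg8* was higher in libraries with more counts (Pearson r = 0.65, permutation p = 0.00393, adjusted 0.0393; Spearman's rho 0.69, permutation p = 0.00219, adjusted 0.0219; 19 embryos). Without the 2 embryos farthest from the median total the Pearson correlation was 0.79, and it was 0.85 within *Upf2*-null and 0.46 within control embryos. *Smg9* with the library total did not pass, with a Pearson correlation of 0.49 (permutation p = 0.0457, adjusted 0.0891). Its rho was 0.57 (permutation p = 0.0176, adjusted 0.0881). Without the same 2 embryos the Pearson correlation of *Smg9* with the total was 0.42, and it was 0.54 within *Upf2*-null and 0.44 within control embryos. The number of genes detected gave Pearson correlations of 0.78 with *Smg5*, 0.73 with *Smg6* and 0.64 with *Smg1* (permutation p = 0.0178, 0.0535 and 0.0304; adjusted 0.0761, 0.0891 and 0.0761). The corresponding values of rho were 0.31, 0.21 and 0.25 (permutation p = 0.189, 0.376 and 0.303; adjusted 0.316, 0.432 and 0.432). Without the 2 farthest embryos, control 5 and *Upf2*-null 2, these Pearson correlations were 0.30, 0.25 and 0.10, so they rest on those embryos. *Smg8* with the number of genes detected gave 0.51 (permutation p = 0.0264, adjusted 0.0761), with a rho of 0.49 (permutation p = 0.0447, adjusted 0.109). Its Pearson correlation was 0.59 without those 2 embryos and 0.36 without control embryo 5 alone.

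The genes whose centred log2 CPM followed each SMG gene most closely over the 19 embryos were sought among the 7840 other tested genes with a mean of at least 20 CPM, as a description with no test. For *Smg1* they were *Hnrnpa0*, *Usp34* and *Smurf2*, with Pearson correlations of 0.93, 0.92 and 0.91. These were 0.88, 0.84 and 0.81 without control embryo 5. For *Smg9* they were *Med24*, *Ipo4* and *Xpot* (0.89, 0.87 and 0.86), and for *Smg8* they were *Atmin*, *Hectd3* and *Arhgap35* (0.84, 0.81 and 0.80). Both sets changed little without control embryo 5, at 0.91, 0.88 and 0.86 and at 0.83, 0.80 and 0.76. For *Smg6* they were *Erc1*, *2610306M01Rik* and *Tfe3* (0.96, 0.96 and 0.95; 0.84, 0.83 and 0.75 without control embryo 5). For *Smg5* they were *Zfp397*, *Tasp1* and *Ago3* (0.89, 0.89 and 0.89), which fell to 0.59, 0.49 and 0.54 without that embryo. All points share their libraries, so depth and library quality are common to both genes of a pair.

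The UPF genes encode the core of the pathway that the SMG proteins act on. *Upf1*, the helicase that SMG1 phosphorylates, was 38.8 ± 22.6 CPM (SD, n = 8) in *Upf2*-null and 25.3 ± 10.9 CPM (SD, n = 11) in control embryos. Its log2 fold change was 0.61 ± 0.36 (SE; edgeR, Benjamini-Hochberg adjusted p = 0.544), and was 0.27 by voom and 0.40 by limma on the scaled table (adjusted p = 0.804 and 0.811). The gene count of *Upf2* gave 0.66 ± 0.18, which did not pass by edgeR (Benjamini-Hochberg adjusted p = 0.185) and passed by DESeq2 (adjusted p = 0.0416) and voom (adjusted p = 0.0228). *Upf3a* and *Upf3b*, which encode the proteins linking UPF2 to the exon junction complex, gave 0.00 ± 0.32 and 0.29 ± 0.16 (edgeR, Benjamini-Hochberg adjusted p = 0.999 and 0.497), and the sign of *Upf3a* changed under several settings.

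Beyond the SMG genes, 8 lists of the NMD pathway and its known targets, the UPF genes included, held 71 genes, of which 70 were tested. Of these, 35 were above 0 and 35 below 0, with a median log2 fold change within 0.01 of 0, and 3 were called by edgeR, all higher, where 0.175% of all genes were called higher. The called genes were *Ddit3*, *Pnrc2* and *Snhg5*. *Ddit3*, a stress-response transcription factor gene with an upstream open reading frame, was 66.0 ± 14.0 CPM (SD, n = 8) in *Upf2*-null and 26.1 ± 9.87 CPM (SD, n = 11) in control embryos. It rose by a log2 fold change of 1.34 ± 0.23 (SE; edgeR, Benjamini-Hochberg adjusted p = 0.0251), with 50.7 to 87.0 CPM in *Upf2*-null and 9.88 to 45.3 CPM in control embryos. *Pnrc2*, whose protein links UPF1 to mRNA decapping, rose by 0.75 ± 0.16 (edgeR, Benjamini-Hochberg adjusted p = 0.0920), with 6 of 8 *Upf2*-null embryos above every control. *Snhg5*, a noncoding host gene of small nucleolar RNAs, rose by 0.69 ± 0.15 (adjusted p = 0.0938), also with 6 of 8 above every control. Only *Ddit3* was also under an adjusted p of 0.05, and *Ddit3* was the 1 pathway gene called when any of 12 embryos was left out singly (*Upf2*-null 2, 4, 5, 6, 7 or 8, or control 1, 4, 7, 8, 10 or 11).

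The classical NMD targets were the list with the most genes at a low p: 12 of 17 tested were above 0, 2 were called higher by edgeR, 7 were higher and 1 lower at an unadjusted p under 0.05, and the median log2 fold change was 0.32. Of all 17137 genes, 47.7% were above 0, 0.175% were called higher by edgeR, and 2147 were under that unadjusted limit, 883 of them higher. DESeq2 called 5 of the classical targets higher and voom 5, against 1.03% and 0.654% of all genes in either direction. Genes enter such lists because they responded to NMD in other cells, and the study itself names several of them, so their count is not independent evidence of a direction.

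The 5 lists of further partners of the SMG proteins gave no call by edgeR, 1 by DESeq2 and 0 by voom. In the exon junction complex, which marks spliced junctions for UPF2 and UPF3, 0 of 6 genes were called, 0 were higher and 1 lower at an unadjusted p under 0.05, and *Eif4a3*, its RNA helicase, had the lowest p with a log2 fold change of −0.19 ± 0.07 (edgeR, Benjamini-Hochberg adjusted p = 0.264). Among the 7 genes for chaperones of kinases of the SMG1 family, 0 were called and 1 was lower at an unadjusted p under 0.05. That gene was *Tti2*, whose protein belongs to the complex that stabilises SMG1 and its relatives. It was 25.0 ± 5.98 CPM in *Upf2*-null and 40.6 ± 9.18 CPM in control embryos, a log2 fold change of −0.70 ± 0.19 (edgeR, Benjamini-Hochberg adjusted p = 0.185; DESeq2, 0.0130). Among the 5 other kinases of the family 0 were called, and *Prkdc*, the catalytic subunit of DNA-dependent protein kinase, had the lowest p with 0.60 ± 0.36 (adjusted p = 0.563). Without *Upf2*-null embryo 4, *Prkdc* was at 0.38 (edgeR, adjusted p = 0.836). In the core of protein phosphatase 2A, the phosphatase that SMG5 recruits, 0 of 4 genes were called, with *Ppp2cb* at −0.20 ± 0.12 (adjusted p = 0.555) and −0.12 by voom. Of the 19 genes for deadenylation, decapping and exonucleases, 0 were called and 14 were below 0, where 47.7% of all genes tested were above 0. *Cnot8*, a deadenylase, had the lowest p with −0.17 ± 0.07 (edgeR, adjusted p = 0.320). In these 5 lists with no call the count at an unadjusted p under 0.05 was 3 of 41 genes, all lower, against 12.5% of all genes in either direction. Of the 17137 genes tested, 2147 were under that limit, 883 of them higher and the rest lower. With at least 10 counts in 5 embryos required, 979 of 13263 genes were under it, 481 of them higher. The direction and number of the 3 genes are therefore not read as a result about these lists.

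The deposited transcript models, merged over libraries and with no value per embryo, add forms of these genes beyond the annotation that guided them. *Smg5* had 7 assembled models, 6 of them with a junction not annotated. *Smg6* had 4, all with such a junction, *Smg1* had 3, of which 2 had one, and *Smg9* had 2, of which 0 had one and 1 retained an intron. *Smg8* had none. Both new junctions of *Smg1* joined annotated splice sites and skipped 1 exon, of 107 and of 214 bases, neither a multiple of 3. In *Smg6*, 1 junction skipped an exon of 1756 bases, not a multiple of 3, and 1 an exon of 177 bases, a multiple of 3. In *Smg5*, 1 junction skipped an exon of 99 bases, also a multiple of 3. The level of these forms in *Upf2*-null and control embryos was not analysed here.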

How the data were processed

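Raw read-pair counts per Ensembl gene were deposited. The authors trimmed the reads, aligned them with STAR 2.5.2a to GRCm38, removed PCR duplicates with SAMtools and counted with featureCounts. A second deposited table, named as TPM, holds a signal that is the same counts times 1 factor per embryo (whole reads within 0.01 in 100% of values) and served as an alternative: limma on its log2 values, planned, called 43 genes, and edgeR on the recovered reads, added after seeing the data, called 33. The deposited StringTie models gave positions of exons (HISAT2, unstranded). Genotypes came from the labels. The members and lists were chosen with earlier results of these data known. The test kept any gene that reached 10 counts in 1 embryo or more and was the robust quasi-likelihood fit of edgeR 4.0.16 in R 4.3.3, with TMM scaling, Benjamini-Hochberg adjustment over all genes and a threshold of 0.1. limma 3.58.1 and DESeq2 1.42.0 gave alternatives. CPM values on the log2 scale used a prior count of 2, and Python 3.11.15 with scipy 1.17.1 gave permutation tests. The scripts were tested on simulated data. Beyond the SMG and UPF genes, the named genes are each list's called genes, otherwise its gene with the lowest unadjusted p, and the 3 genes most like each SMG gene. Libraries held no molecular identifiers. No 2 embryos of a group had counts alike within sampling noise. Of 114 list symbols, 113 matched the table. Other SMG family genes are not reported here.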

Additional observations from a re-analysis of the deposited data

Results flagged for a closer look

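No value of the SMG or UPF genes in the 8 *Upf2*-null embryos lay far enough from the others to pass Dixon's test at 0.526, in 9 genes tested, of which chance alone would flag about 1 in 20. The test was not run on the 11 control embryos. The result therefore does not cover control embryo 5, which had the lowest counts of *Smg1*, *Smg5* and *Smg6* in any embryo.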

How the results depend on the processing

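The number of SMG genes called was 0 under all of the alternatives run. Under 31 alternatives each the log2 fold change ran from 0.46 to 0.84 for *Smg1*, 0.38 to 0.93 for *Smg5*, 0.24 to 0.94 for *Smg6*, −0.18 to 0.05 for *Smg8* and 0.41 to 0.87 for *Smg9*, with a lowest adjusted p of 0.362. Leaving out 1 embryo gave 0.46 to 0.79 for *Smg1*, 0.46 to 0.70 for *Smg5*, 0.32 to 0.58 for *Smg6*, −0.11 to 0.052 for *Smg8*, whose sign changed in 6 of these, and 0.48 to 0.87 for *Smg9*. *Upf1* ran from 0.27 to 0.77 and *Prkdc* from 0.38 to 0.82 over the alternatives. The number of NMD pathway genes called, 3 (of all genes 0.193% were called), was 8 by DESeq2 (1.03% of all genes), 7 by voom (0.654% of all genes), 1 at an adjusted p under 0.05 and 1 to 4 with 1 embryo left out. With the replicate number as a block (embryos 1 to 8 of each group), it was 0, edgeR called 0 of all genes (684 at an unadjusted p under 0.05), and *Smg1*, *Smg5*, *Smg6*, *Smg8* and *Smg9* gave 0.67, 0.93, 0.94, −0.01 and 0.41. The numbers do not pair the embryos: correlations of same-numbered embryos were −0.14 to 0.07, and 0 *Upf2*-null embryos correlated best with their own number. *Upf3a*, at 0.00, gave −0.0043 by DESeq2, −0.0045 by RLE size factors, −0.0014 with no low-count filter, −0.0021 with the filter over 5 embryos, −0.00019 on the recovered reads, −0.14 by voom, −0.059 by limma on the scaled table, −0.11 to 0.14 with 1 embryo left out, and −0.080 and −0.028 without control embryos 2 and 4, and 2, 4 and 5. Those 2 sets and the recovered reads were chosen after seeing the data. Per kilobase of the longest coding transcript, the control level was 6.37 CPM for *Smg5*, 10.6 for *Smg9* and 3.87 for *Smg1*. The correlation of *Smg5* and *Smg9*, −1.4e-05, was 0.13 without centring and 0.0014 with a prior count of 0.5. By the longest annotated 3′ UTR the percentiles were 94.0, 55.6, 62.6, 20.5 and 23.7 for *Smg1*, *Smg5*, *Smg6*, *Smg8* and *Smg9*. The cause of these shifts was not tested. Over all genes, calls were 33 by edgeR, 176 by DESeq2, 112 by voom, 51 with the library total as a covariate, 56 without control embryos 2, 4 and 5, and 14 to 43 with 1 embryo left out. They were 14, 14, 16, 15 and 16 without *Upf2*-null embryos 4, 5, 6, 7 and 8, 22 without *Upf2*-null embryo 2, 18, 20, 18 and 19 without control embryos 1, 3, 7 and 8, and 22 without control embryo 9.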
